A study of Mus musculus with 9 samples.

Results

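The genes of the mouse MHC class II pathway and Ciita, the gene of their master regulator, were followed through 9 RNA-seq libraries of labial mucosa. The 10 genes were taken by symbol from all 9 libraries, out of 55342 gene names: Ciita, the 3 classical chains H2-Aa, H2-Ab1 and H2-Eb1, the invariant chain Cd74, the DM chains H2-DMa, H2-DMb1 and H2-DMb2, and the DO chains H2-Oa and H2-Ob. All 10 were found in every library. The libraries came from 3 strains with 3 libraries each, labelled Tac111, Tac146 and B6. In all of them, per the labels' protocols, the mice had been infected before the biopsy was taken, polyadenylated RNA was extracted, and a stranded library kit was used. The labels speak of mice with different mutations but give no allele, age, infecting agent or time, and do not say whether a library is 1 mouse or a pool.

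MHC class II proteins are pairs of an alpha and a beta chain that display peptides from endocytosed proteins to CD4+ T cells. Dendritic cells, Langerhans cells, macrophages and B cells carry them at steady state, and interferon gamma induces them in other cells, epithelium included. Ciita does not bind DNA: it joins a complex of RFX, CREB and NF-Y proteins that sits on the X and Y boxes of class II promoters. In the endosome, Cd74 guards the empty groove, DM loads peptide, and DO holds DM back.

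The promoters of these genes are shown first because the 10 genes were analysed as a group with a shared regulator. RefSeq promoter windows (GRCm38.p6, 250 bases before to 50 bases after the annotated start) were found for 7 of the 10, with no entry for Ciita, H2-Ab1 and Cd74. Each line below gives 80 bases, 5′ to 3′ in the direction of transcription, with capitals for the letters GATTGG (the core of the Y box) and AACNNATG (a core of the X box). These letters were chosen after the windows had been read. H2-Eb2, a class II beta locus outside the 10 genes, is shown for comparison.
H2-Aa, chr17:34287853-34287932, minus strand: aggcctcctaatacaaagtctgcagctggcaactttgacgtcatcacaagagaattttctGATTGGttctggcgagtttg
H2-Eb1, chr17:34305747-34305826, plus strand: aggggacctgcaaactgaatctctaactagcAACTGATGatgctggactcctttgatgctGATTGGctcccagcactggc
H2-DMb1, chr17:34153069-34153148, plus strand: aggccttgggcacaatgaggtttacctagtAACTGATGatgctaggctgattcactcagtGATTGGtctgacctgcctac
H2-DMb2, chr17:34145098-34145177, plus strand: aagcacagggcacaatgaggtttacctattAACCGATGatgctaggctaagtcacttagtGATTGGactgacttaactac
H2-Oa, chr17:34092275-34092354, plus strand: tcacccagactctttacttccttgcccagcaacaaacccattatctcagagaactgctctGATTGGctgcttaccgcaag
H2-Ob, chr17:34238787-34238866, plus strand: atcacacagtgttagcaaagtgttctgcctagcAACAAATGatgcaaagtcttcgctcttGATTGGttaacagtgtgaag
H2-Eb2, chr17:34325514-34325593, plus strand: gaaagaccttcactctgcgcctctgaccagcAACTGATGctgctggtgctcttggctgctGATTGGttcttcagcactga

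All 7 genes with a window held GATTGG in one, on the strand of the gene, H2-DMa only in the second of its 2 windows. In H2-DMa it lay 199 bases before the annotated start, and that sequence is not printed here. Searched on both strands, GATTGG was in 16.1% of all 32851 RefSeq promoter windows and AACNNATG in 8.86%. The 2 motifs do not overlap each other, and AACNNATG followed by GATTGG on the same strand, with 10 to 30 bases between, was in 0.0761%, or 25 windows. H2-Eb1 (21 bases between), H2-DMb1 (22), H2-DMb2 (22) and H2-Ob (19) held that pair, and so did H2-Eb2 (21). H2-Aa, H2-Oa and H2-DMa did not, which says only that these letters were not in these windows. Because the letters were chosen after these windows had been read, the shares over all windows are a description and not a test.

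On the GRCm38 map (GENCODE annotation, matched by symbol), 8 of the 10 genes lie together on chromosome 17. H2-Oa (34092340 to 34095234), H2-DMa (34119541 to 34139101), H2-DMb2 (34143307 to 34151555), H2-DMb1 (34153072 to 34160230), H2-Ob (34238903 to 34254414), H2-Ab1 (34257689 to 34269419) and H2-Eb1 (34305867 to 34316674) are on the plus strand, and H2-Aa (34282744 to 34287823) is on the minus strand. Ciita is on chromosome 16 (10480059 to 10528418, plus strand) and Cd74 on chromosome 18 (60803848 to 60812652, plus strand). Ciita, H2-Eb1, Cd74, H2-DMa and H2-Oa each overlap another annotated gene, and no source used here gives the strand setting of the counting, so reads of such neighbours may be shared.

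Total expected counts per library were 27192359 to 46456500. The labels name the cells as T cells in the Tac111 and Tac146 libraries and as type 1 innate lymphoid cells (ILC1) in the B6 libraries, but in all 9 libraries epithelial and muscle transcripts stood far above lymphocyte markers. Summed over 9 keratinocyte markers, the level was 72994 to 84632 CPM in Tac111, 77527 to 101565 CPM in Tac146 and 72132 to 108582 CPM in B6. Summed over 12 T cell markers it was 7.18 to 9.51 CPM in Tac111, where Cd3d, Cd3e and Cd3g had 0 counts, 8.72 to 10.9 CPM in Tac146 and 15.5 to 21.6 CPM in B6. Over 12 ILC1 and natural killer (NK) cell markers it was 6.36 to 8.86 CPM in Tac111, where Ncr1 had 0 counts, 24.2 to 31.0 CPM in Tac146 and 22.5 to 27.9 CPM in B6. Single genes made up most of both sums in Tac111. Trbc2, a T cell marker, averaged 6.71 CPM in Tac111, 5.975 CPM in Tac146 and 6.43 CPM in B6 and was called in no comparison. Itga1, of the ILC1 and NK list, averaged 6.76 CPM in Tac111, 11.3 CPM in Tac146 and 10.9 CPM in B6. In Tac111, 5 of the 12 T cell markers and 7 of the 12 ILC1 and NK markers had 0 counts. Il2rg, the shared cytokine receptor chain, had 3 to 4 counts in a Tac111 library, 131 to 242 in a Tac146 library and 145 to 216 in a B6 library. In such bulk samples, fewer cells of a type and less RNA per cell cannot be told apart.

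Class II transcripts were lower in Tac111 than in both other strains, and none was called between Tac146 and B6. Of the 10 genes, 8 fell in Tac111 against B6 and 0 rose (edgeR quasi-likelihood test, adjusted p under 0.05), where 2.8% of the 16523 genes tested were called lower and 1.02% higher. In Tac111 against Tac146, 8 fell and 0 rose, where 6.27% of all genes were called lower and 2.62% higher. In Tac146 against B6, edgeR called 0 of the 10 (1 at an unadjusted p under 0.05, 0 with DESeq2), where 0.303% of all genes were called in either direction. With the 3 strains tested together, 8 of the 10 were called, beside 4.88% of all genes. H2-Oa and H2-Ob, the DO chains, were the 2 not called in these tests.

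The libraries of Tac111 lay below all libraries of B6 for each of the 10 genes, a pattern seen in 15.9% of all genes tested. They also lay below all libraries of Tac146 for each of the 10, as for 18.4% of all genes. Of the 10, H2-Oa reached the level of the filter on low counts in 0 Tac111 libraries and H2-Ob in 2. These DO chains thus passed it through the other strains. The median log2 fold change of the 10 genes was -1.06 in Tac111 against B6, beside 0.02 over all genes, and -1.27 in Tac111 against Tac146, beside 0.02 over all genes. It was 0.20 in Tac146 against B6, beside 0.01 over all genes. The comparisons share libraries, so their values are not independent of each other. Whether libraries of a strain are separate mice is not stated. The p-values thus weigh strain differences against a spread between libraries that may be technical. Levels below are CPM (counts scaled by library size), listed in the order of the replicate numbers, which are 1, 2 and 3 for Tac111 and B6 and 2, 3 and 4 for Tac146.

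**Figure D1:**
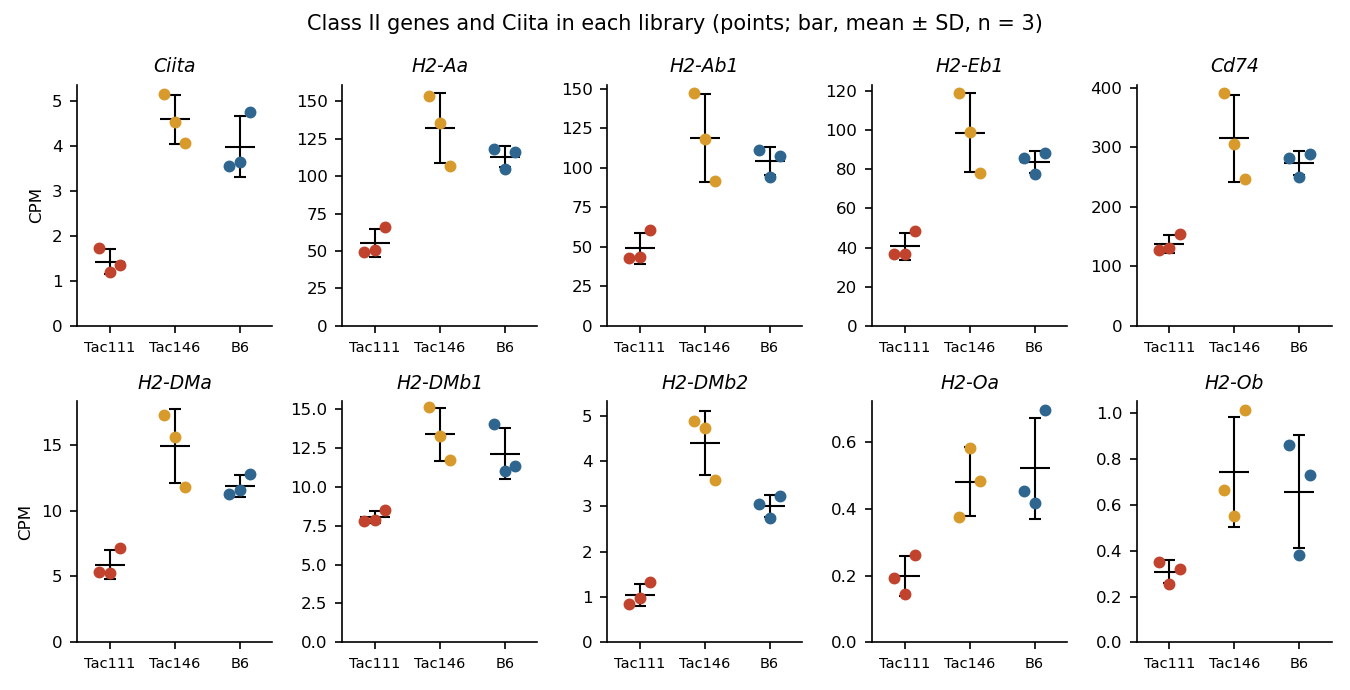
Level of each of the 10 genes in CPM (y axis, from 0, a scale of its own for each gene) in the libraries of Tac111, Tac146 and B6. Points are libraries and bars the mean ± SD (n = 3). In every panel the 3 Tac111 points lie below the points of the other strains, and the Tac146 and B6 points overlap in all panels but that of H2-DMb2.

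Ciita, the regulator, was at 1.73, 1.19 and 1.37 CPM in Tac111, 5.18, 4.55 and 4.08 CPM in Tac146, and 3.56, 3.65 and 4.77 CPM in B6. The highest Tac111 library was well below the lowest library of either other strain, while Tac146 and B6 overlapped. These levels rest on 33 to 54 counts in a Tac111 library, 148 to 234 in a Tac146 library and 105 to 149 in a B6 library. Ciita was 2.78-fold lower in Tac111 than in B6 (log2 fold change -1.47 ± 0.20 SE, adjusted p = 0.00249 by edgeR). Against Tac146 it was 3.21-fold lower in Tac111 (log2 fold change -1.68 ± 0.20 SE, adjusted p = 0.000910 by edgeR). The fold change of Tac146 over B6 was 1.15 with a 95% interval of 0.875 to 1.52.

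The classical chains belong to 2 surface molecules: I-A pairs H2-Aa with H2-Ab1, and I-E needs H2-Eb1 with an E alpha chain. No counts of the E alpha locus were seen here, so levels of H2-Eb1 are not levels of I-E. H2-Aa was at 49.4, 50.5 and 66.03 CPM in Tac111, 153.7, 135.8 and 107.1 CPM in Tac146, and 118, 105 and 116 CPM in B6. H2-Ab1, its beta chain, was at 43.2, 43.7 and 60.5 CPM in Tac111, 147, 118 and 91.5 CPM in Tac146, and 111.4, 94.2 and 108 CPM in B6. For both chains, Tac111 replicate 3 was the highest of its strain and still below every Tac146 and B6 library, and the Tac146 libraries overlapped B6 with a wider spread. H2-Aa was 2.04-fold lower in Tac111 than in B6 (log2 fold change -1.03 ± 0.15 SE, adjusted p = 0.00359 by edgeR), and H2-Ab1 was 2.13-fold lower (log2 fold change -1.09 ± 0.18 SE, adjusted p = 0.00811 by edgeR). Against Tac146 the log2 fold changes of Tac111 were -1.26 (SE 0.15) for H2-Aa and -1.28 (SE 0.18) for H2-Ab1, with edgeR adjusted p-values of 0.000956 and 0.00265.

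H2-Eb1, the beta chain of I-E, was at 36.6, 36.8 and 48.6 CPM in Tac111, 119, 99.2 and 78.4 CPM in Tac146, and 86.0, 77.4 and 88.2 CPM in B6. Again all Tac111 libraries were below the others, and Tac146 overlapped B6. It fell in Tac111 against B6 by 1.04 on the log2 scale (± 0.16 SE, adjusted p = 0.00526 by edgeR) and against Tac146 by 1.28 (± 0.16 SE, adjusted p = 0.00125 by edgeR). The E alpha locus is listed as the pseudogene H2-Ea-ps and had 0 counts in all 9 libraries, which allows up to 0.0320 CPM over the Tac111 libraries, 0.0243 CPM over the Tac146 libraries and 0.0299 CPM over the B6 libraries (3 counts over the strain, counting error only). H2-Eb2, whose promoter holds the same pair of motifs as that of H2-Eb1, had 0, 0 and 1 counts in Tac111, 6, 4 and 6 in Tac146, and 8, 0 and 3 in B6. It was too low to be tested.

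The 3 classical chains kept nearly constant ratios from library to library. The ratio of the CPM of H2-Eb1 to that of H2-Aa was 0.735 ± 0.006 in Tac111, 0.745 ± 0.025 in Tac146 and 0.743 ± 0.016 in B6 (SD, n = 3 each). For H2-Ab1 over H2-Aa it was 0.885 ± 0.027 in Tac111, 0.894 ± 0.056 in Tac146 and 0.924 ± 0.024 in B6. Each chain differed from the pattern of their mean, which it is part of, by 0.016 to 0.032 (root mean square difference of centred log2(CPM + 1) over the 9 libraries). Within Tac146, replicate 2 was the highest and replicate 4 the lowest for all 3 chains, so that H2-Ab1 in Tac146 against B6 had a log2 fold change of 0.19 with all libraries and -0.001 without Tac146 replicate 2.

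Cd74, the invariant chain that accompanies every new class II pair, was the most abundant of the 10. It was at 128, 130.1 and 155 CPM in Tac111, 392, 305 and 247 CPM in Tac146, and 281, 251 and 288 CPM in B6. As with the classical chains, Tac111 stood apart below, and Tac146 overlapped B6. Cd74 was 1.99-fold lower in Tac111 than in B6 (log2 fold change -0.99 ± 0.16 SE, adjusted p = 0.00628 by edgeR) and 2.29-fold lower than in Tac146 (log2 fold change -1.19 ± 0.16 SE, adjusted p = 0.00170 by edgeR). Its CPM ratio to H2-Aa was 2.503 ± 0.138 in Tac111, 2.37 ± 0.160 in Tac146 and 2.42 ± 0.056 in B6 (SD, n = 3 each). For Ciita over H2-Aa the ratio was 0.0350, 0.0236 and 0.0207 in the Tac111 libraries, 0.0337, 0.0335 and 0.0381 in the Tac146 libraries, and 0.0302, 0.0348 and 0.0411 in the B6 libraries. Tac111 replicate 1 lay among the libraries of the other strains for that ratio, and the other two Tac111 libraries lay below all of them.

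**Figure D2:**
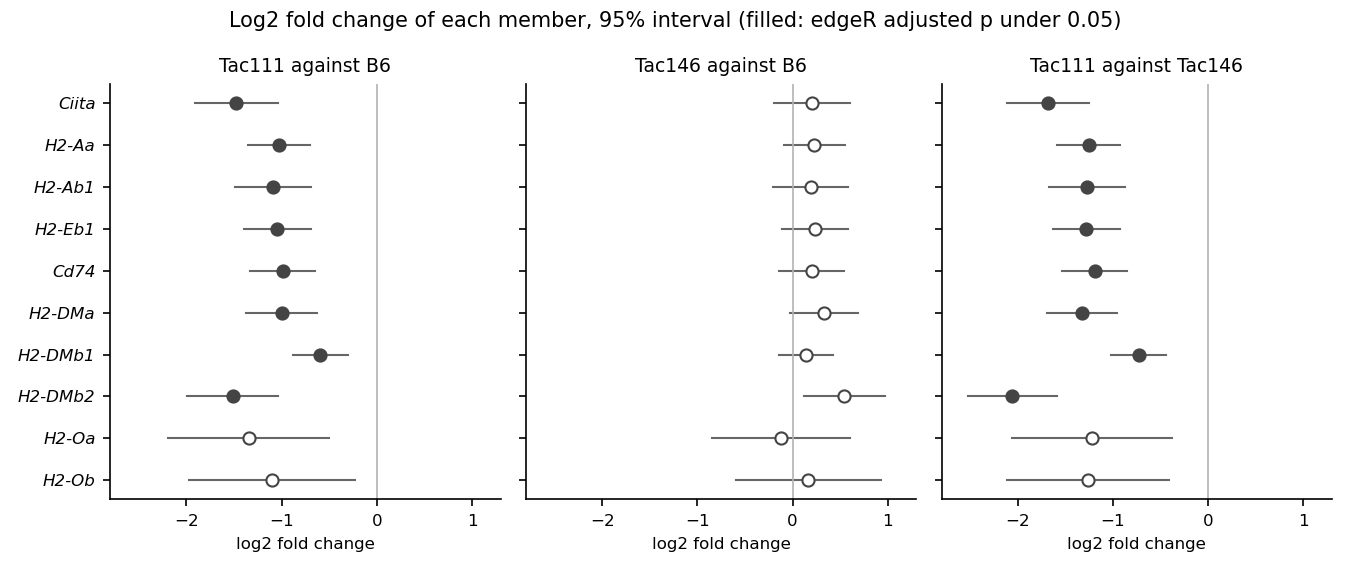
Log2 fold change (x axis) of each of the 10 genes in Tac111 against B6, Tac146 against B6 and Tac111 against Tac146, with 95% intervals as lines. Filled points passed the edgeR test at an adjusted p under 0.05. Filled points stand left of 0 for 8 genes in both comparisons of Tac111, and the comparison of Tac146 with B6 has none.

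The DM chains form the enzyme-like partner that exchanges the invariant chain fragment for peptide. H2-DMa was at 5.32, 5.24 and 7.15 CPM in Tac111, 17.3, 15.6 and 11.8 CPM in Tac146, and 11.2, 11.5 and 12.8 CPM in B6. Its Tac111 libraries stood apart below, and its fold changes were close to those of H2-Aa, at -0.999 on the log2 scale against B6 (± 0.17 SE, adjusted p = 0.00874 by edgeR) and -1.33 against Tac146 (± 0.17 SE, adjusted p = 0.00133 by edgeR). The fold change of Tac146 over B6 was 1.26, with a 95% interval of 0.983 to 1.61.

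The beta chain of DM has 2 neighbouring copies in the mouse, and these gave unlike values. H2-DMb1, the more abundant copy, was at 7.81, 7.87 and 8.47 CPM in Tac111, 15.1, 13.3 and 11.7 CPM in Tac146, and 14.0, 11.0 and 11.3 CPM in B6. H2-DMb2 was at 0.844, 0.977 and 1.33 CPM in Tac111, 4.89, 4.73 and 3.58 CPM in Tac146, and 3.06, 2.75 and 3.24 CPM in B6. Tac111 was below both other strains for either copy, and H2-DMb2 alone had all 3 Tac146 libraries above all 3 B6 libraries, as 6.35% of all genes tested did. H2-DMb1 fell by 0.59 on the log2 scale in Tac111 against B6 (± 0.13 SE, adjusted p = 0.0328 by edgeR), the smallest edgeR change of the 10, and H2-DMb2 by 1.51 (± 0.22 SE, adjusted p = 0.00345 by edgeR), within the SE of the change of Ciita. Against Tac146 the changes in Tac111 were -0.73 for H2-DMb1 (± 0.13 SE, adjusted p = 0.0101 by edgeR) and -2.06 for H2-DMb2 (± 0.21 SE, adjusted p = 0.000380 by edgeR).

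The call of H2-DMb1 in Tac111 against B6 is the least firm of the 8. It was lost with upper-quartile scaling (edgeR adjusted p = 0.0536) and when any single library of Tac111 or B6, or Tac146 replicate 3, was left out (edgeR adjusted p = 0.0505 to 0.120), with a range of 0.00407 to 0.120 over all alternatives. H2-DMb2 in Tac146 against B6 had a log2 fold change of 0.54 (SE 0.19, unadjusted p = 0.0168, edgeR adjusted p = 0.564). It was the only one of the 10 genes with an unadjusted p under 0.05 in that comparison.

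Reads of the 2 DM beta copies are hard to separate. Their main transcripts (1404 and 1424 bases) were identical at 94.4% of 1255 aligned bases, with an identical run of up to 221 bases. They were the only ones of the 10 genes with counts that were not whole, and in each library their sum was whole. H2-DMb2 took 9.75, 11.0 and 13.5% of that sum in Tac111, 24.4, 26.3 and 23.4% in Tac146, and 17.9, 19.9 and 22.3% in B6. The 3 strains did not overlap in this share, which rests on how the authors' estimate divided shared reads. With both copies added up, the sum fell by 0.74 on the log2 scale in Tac111 against B6 (± 0.13 SE, adjusted p = 0.0101 by edgeR) and by 0.96 against Tac146 (± 0.13 SE, adjusted p = 0.00170 by edgeR). In Tac146 against B6 the sum had a log2 fold change of 0.23 (± 0.12 SE, adjusted p = 0.763 by edgeR).

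**Figure D3:**
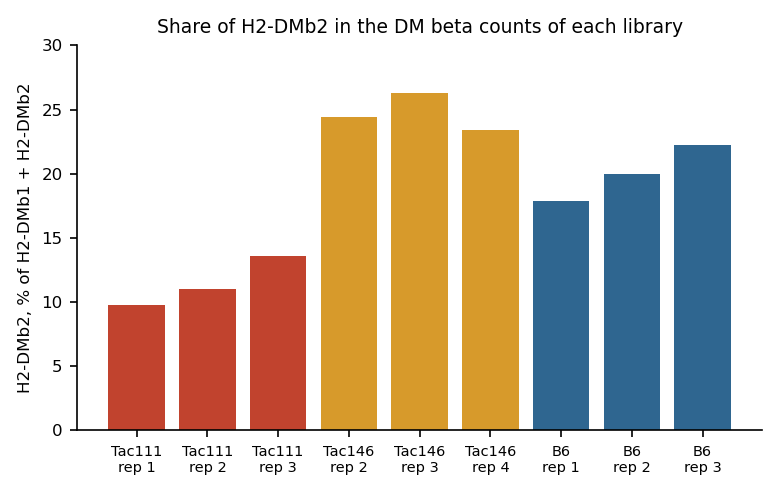
Share of H2-DMb2 in the summed expected counts of H2-DMb1 and H2-DMb2 (y axis, %, from 0) in each library of Tac111, Tac146 and B6. Bars are single libraries. The Tac111 bars lie at 9.75 to 13.5%, the Tac146 bars at 23.4 to 26.3% and the B6 bars at 17.9 to 22.3%.

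The DO chains, which restrain DM and are best known from B cells, were the lowest of the 10. H2-Oa had 6, 4 and 9 counts in Tac111 libraries, 17, 19 and 22 in the Tac146 libraries, and 19, 12 and 21 in the B6 libraries. H2-Ob had 11, 7 and 11 counts in Tac111, 30, 18 and 46 in Tac146, and 36, 11 and 22 in B6. In CPM, these gave 0.192, 0.145 and 0.262 for H2-Oa in Tac111, 0.376, 0.584 and 0.485 in Tac146, and 0.454, 0.418 and 0.696 in B6. The Tac111 libraries were again the lowest, but H2-Ob in B6 replicate 2, at 0.383 CPM, was close to the highest Tac111 library, at 0.353 CPM.

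Neither DO chain passed the test in any comparison. In Tac111 against B6 the log2 fold change was -1.34 for H2-Oa (95% interval -2.19 to -0.50, edgeR adjusted p = 0.0848) and -1.10 for H2-Ob (95% interval -1.97 to -0.23, edgeR adjusted p = 0.152). In Tac111 against Tac146 it was -1.22 for H2-Oa (95% interval -2.06 to -0.38, edgeR adjusted p = 0.0662) and -1.27 for H2-Ob (95% interval -2.12 to -0.42, edgeR adjusted p = 0.0624). The sizes are near those of the other genes, with intervals wider than the change itself. All 10 genes passed the filter on low counts, but H2-Oa was at or above its level of 0.302 CPM in 0 Tac111 libraries, 3 Tac146 libraries and 3 B6 libraries, and H2-Ob in 2, 3 and 3. Beside the DO chains, the B cell marker Ms4a1 had 0 counts in all 9 libraries, and 10 B cell markers summed to 0.577 to 0.843 CPM in Tac111, 1.32 to 1.46 CPM in Tac146 and 1.38 to 2.02 CPM in B6. Only 2 of these markers, Spib and Fcer2a, had enough counts to be tested, at 1 to 31 counts in a library. Spib fell in Tac111 against B6 (edgeR adjusted p = 0.0330) but was not called against Tac146. Fcer2a fell in Tac111 against Tac146 (edgeR adjusted p = 0.0268) but was not called against B6. The part of B cells in the DO level was not tested.

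Levels can be set against each other between genes only per length. Per kb of merged exons, the order was the same in the 3 strains: Cd74, H2-Eb1, H2-Ab1, H2-Aa, H2-DMb1, H2-DMa, H2-DMb2, Ciita, H2-Oa and H2-Ob. Cd74 averaged 82.0 CPM per kb in Tac111, 187 in Tac146 and 163 in B6, and Ciita averaged 0.150, 0.482 and 0.419 CPM per kb in those strains. H2-Eb1 and H2-Ab1 were neighbours whose libraries overlapped in every strain, and with the longest transcript as the length they changed places. H2-Ab1 and H2-Aa overlapped in Tac111 and Tac146, and Ciita and H2-Oa in Tac111 and B6. The other neighbours did not overlap in any strain.

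Between Tac146 and B6, 9 of the 10 genes had a log2 fold change above 0, H2-Oa being the exception, and none was called. The log2 fold changes were -0.12 to 0.54, with edgeR adjusted p-values of 0.564 to 0.942. For the classical chains and Cd74 the 95% intervals of the fold change ran from 0.937 to 1.46 for H2-Aa, 0.870 to 1.49 for H2-Ab1, 0.929 to 1.49 for H2-Eb1 and 0.910 to 1.46 for Cd74. The summed level of the 10 genes was 556 to 855 CPM in Tac146 and 557 to 633 CPM in B6, with 273 to 349 CPM in Tac111.

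EdgeR called none of the factors that carry Ciita on class II promoters in any comparison. Of 7 tested (Rfx5, Rfxank, Rfxap, Nfya, Nfyb, Nfyc and Creb1), edgeR called 0 in Tac111 against B6 (0 at an unadjusted p under 0.05, 0 with DESeq2) and 0 in Tac146 against B6 (1 unadjusted, 0 with DESeq2). In Tac111 against Tac146 edgeR called 0, with 2 at an unadjusted p under 0.05, and DESeq2 called 2 lower, Nfya and Creb1. Their median log2 fold change in Tac111 against B6 was 0.09. Rfx5, the DNA-binding subunit of the RFX complex, averaged 9.28 ± 1.82 CPM in Tac111 and 10.8 ± 0.806 CPM in B6 (SD, n = 3 each). Nfya, a subunit of the Y box factor NF-Y, averaged 20.4 ± 1.10 CPM in Tac111 and 23.1 ± 0.622 CPM in B6. Nfyb, another of its subunits, averaged 22.1 ± 0.598 CPM in Tac111 and 19.9 ± 1.68 CPM in B6. The Tac111 libraries lay below the B6 libraries for Nfya and above them for Nfyb. Summed over the 7 genes, the level was 136 to 148 CPM in Tac111, 147 to 155 CPM in Tac146 and 142 to 143 CPM in B6.

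Upstream of Ciita, interferon gamma acts through the kinase Jak1 and the transcription factor Irf1, among others. Irf1 averaged 10.2 ± 0.454 CPM in Tac111 and 16.1 ± 3.04 CPM in B6 (log2 fold change -0.66 ± 0.14 SE, adjusted p = 0.0311 by edgeR), and the Tac111 libraries lay below the B6 libraries. Against Tac146, at 13.9 ± 1.62 CPM, Irf1 missed the threshold in Tac111 (log2 fold change -0.44, edgeR adjusted p = 0.0722). Jak1 averaged 93.5 ± 7.91 CPM in Tac111, 118.5 ± 6.56 CPM in Tac146 and 118.1 ± 3.71 CPM in B6 (SD, n = 3 each). It fell in Tac111 against Tac146 (log2 fold change -0.34 ± 0.09 SE, adjusted p = 0.0392 by edgeR) and missed the threshold against B6 (edgeR adjusted p = 0.0604). In Tac146 against B6, edgeR called neither gene (adjusted p = 0.783 for Irf1 and 0.994 for Jak1). Ifng itself had 0 counts in all 3 Tac111 libraries, 3, 2 and 2 in the Tac146 libraries, and 0, 1 and 3 in the B6 libraries, too few to be tested.

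Of the genes for processing and turnover of class II, 1 of 10 tested fell in Tac111 against B6 and 0 rose by edgeR. Over all genes, 2.8% were called lower and 1.02% higher. The median log2 fold change of the 10 was -0.09. At an unadjusted p under 0.05 there were 4, and DESeq2 called 3 lower. That gene was Cd83, a dendritic cell surface protein that stabilises class II, at 1.21 ± 0.296 CPM in Tac111 and 2.51 ± 0.361 CPM in B6 (log2 fold change -1.04 ± 0.22 SE, adjusted p = 0.0263 by edgeR). Ctss, the protease that trims the invariant chain, averaged 16.1 ± 1.82 CPM in Tac111 and 27.8 ± 2.26 CPM in B6 and missed the threshold (edgeR adjusted p = 0.0577). Against Tac146, Cd83 and Ctss both fell in Tac111 (edgeR adjusted p = 0.0219 and 0.0410). In Tac146 against B6, edgeR and DESeq2 called 0 of the 10, with 0 at an unadjusted p under 0.05.

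Most genes between and beside the class II loci on chromosome 17 were not called. Of 24 tested, 3 fell in Tac111 against B6 and 0 rose by edgeR, where 2.8% of all genes were called lower and 1.02% higher. The median log2 fold change of the 24 was -0.04. At an unadjusted p under 0.05 there were 8, in either direction, and DESeq2 called 4 lower. The 3 were Psmb8 (log2 fold change -1.36, SE 0.11), Psmb9 (-1.39, SE 0.18) and Tap1 (-0.90, SE 0.15), with edgeR adjusted p-values of 0.000115, 0.00200 and 0.00736. They lie between H2-DMb1 and H2-Ob and serve class I presentation, as immunoproteasome subunits and a peptide transporter. Psmb8 averaged 6.47 ± 0.351 CPM in Tac111 and 16.6 ± 1.53 CPM in B6 (SD, n = 3 each). Tap2, beside Psmb8, missed the threshold (log2 fold change -0.50, edgeR adjusted p = 0.05565), with all Tac111 libraries below the B6 libraries. Brd2, a chromatin reader whose gene overlaps H2-DMa, had a log2 fold change of 0.06 in the same comparison. Psmb8, Psmb9 and Tap1 fell in Tac111 against Tac146 too by edgeR, where 6.27% of all genes were called lower. There, 6 of the 24 were at an unadjusted p under 0.05, and DESeq2 called 4 lower. In Tac146 against B6, edgeR and DESeq2 called 0 of the 24, with 0 at an unadjusted p under 0.05.

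**Figure D4:**
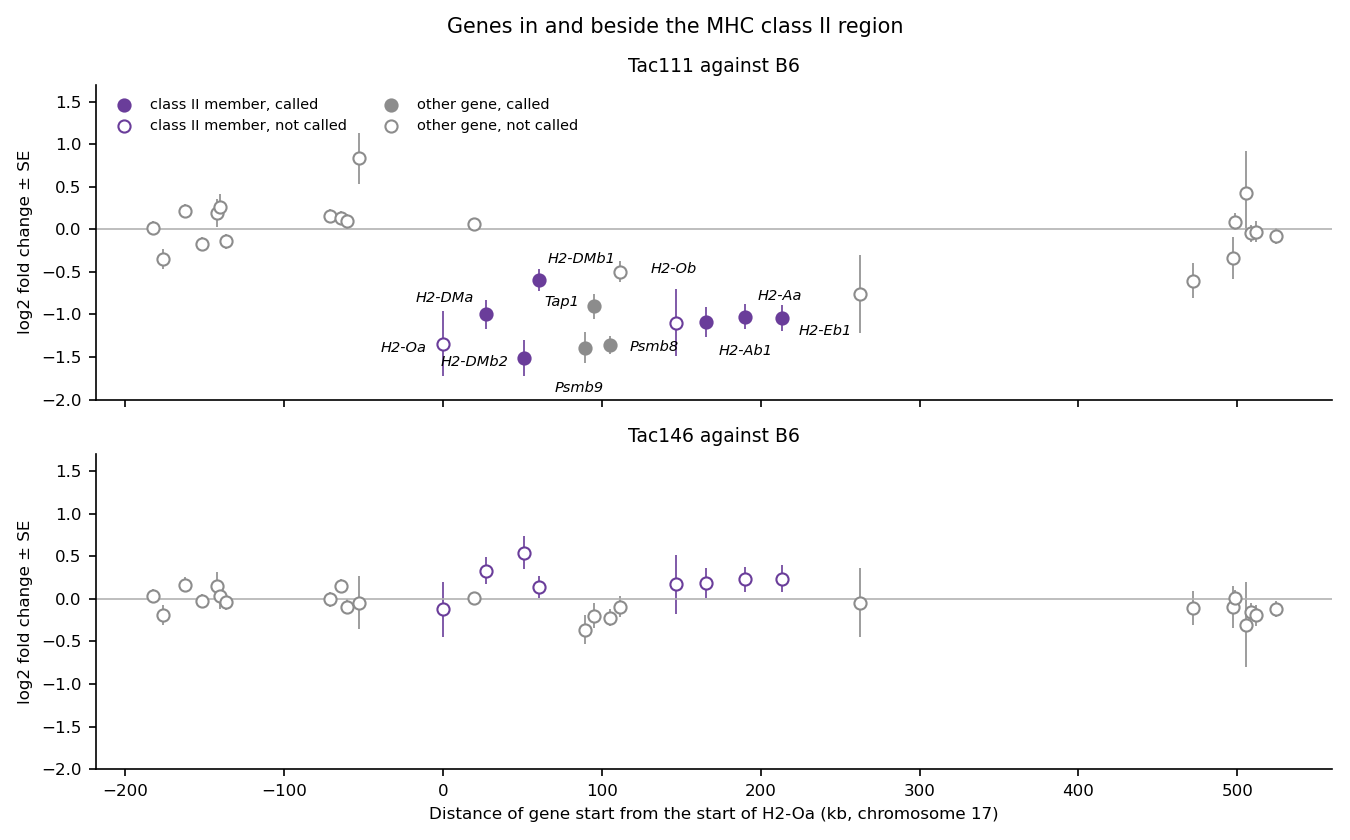
Log2 fold change ± SE (y axis) of the class II genes on chromosome 17 and of the genes between and beside them, by distance of the gene start from the start of H2-Oa (x axis, kb), in Tac111 against B6 above and Tac146 against B6 below. Filled points passed the edgeR test. In the upper panel the filled points (6 class II genes, Psmb9, Tap1 and Psmb8) all stand below -0.5, and the lower panel has no filled point.

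Some markers of leukocytes, which include cells that carry class II, fell in Tac111 too, and others did not pass the test. Over all genes, 2.8% were called lower in Tac111 against B6. All 6 general leukocyte markers fell in Tac111 against B6, by a median of 1.01 on the log2 scale, and summed to 48.0 to 53.1 CPM in Tac111, 84.4 to 122 CPM in Tac146 and 102 to 110 CPM in B6. Ptprc, which encodes CD45, was at 4.49, 5.06 and 4.54 CPM in Tac111, 12.5, 11.9 and 10.1 CPM in Tac146, and 11.0, 10.8 and 11.9 CPM in B6, and fell by 1.26 on the log2 scale in Tac111 against B6 (± 0.12 SE, adjusted p = 0.000389 by edgeR). Of 10 tested dendritic cell markers, Itgax, Ccr7 and Irf8 fell and 0 rose, with a median of -0.58. The other 7 were not called, among them Flt3 (log2 fold change -0.52, edgeR adjusted p = 0.316) and Zbtb46 (-0.30, edgeR adjusted p = 0.358). Of 3 Langerhans cell markers, Cd207 and Mfge8 fell, and Epcam, which epithelium also expresses, had a log2 fold change of 0.16. Mfge8 averaged 54.85 CPM in Tac111 and 88.4 CPM in B6, far above Cd207 at 1.59 and 6.13 CPM. Which cells the Mfge8 transcripts came from was not tested. Of 11 macrophage markers, edgeR called 0 in Tac111 against B6 (2 at an unadjusted p under 0.05, 2 lower with DESeq2), and all 11 had a log2 fold change below 0, with a median of -0.51. In Tac111 against Tac146, edgeR called 2 of the 11 lower, Adgre1 (adjusted p = 0.0498) and Csf1r (adjusted p = 0.0424). All 11 were again below 0 there, with a median of -0.22. In Tac146 against B6, edgeR and DESeq2 called 0 of the leukocyte, dendritic, Langerhans and macrophage markers, with 0 at an unadjusted p under 0.05.

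Itgax, an integrin of dendritic cells, was at 1.60, 1.34 and 1.45 CPM in Tac111, 6.30, 7.03 and 6.61 CPM in Tac146, and 4.01, 4.80 and 6.72 CPM in B6. Cd207, the lectin of Langerhans cells, was at 1.19, 1.48 and 2.09 CPM in Tac111, 8.52, 8.66 and 7.80 CPM in Tac146, and 7.30, 4.56 and 6.53 CPM in B6. The Tac111 libraries were below all others for both, with log2 fold changes against B6 of -1.81 (SE 0.20) for Itgax and -1.94 (SE 0.23) for Cd207. Ccr7, a homing receptor of mature dendritic cells, had counts of 0, 0 and 1 in Tac111, 24, 10 and 20 in Tac146, and 24, 16 and 18 in B6. It thus passed the filter on low counts only through Tac146 and B6. Summed over the whole list, the 12 dendritic markers were at 302 to 368 CPM in Tac111, 289 to 359 CPM in Tac146 and 286 to 358 CPM in B6. Most of that sum is Cd24a, which epithelium also expresses, and the other 11 dendritic markers summed to 13.7 to 16.7 CPM in Tac111, 22.6 to 29.9 CPM in Tac146 and 23.8 to 26.5 CPM in B6. The 3 Langerhans markers summed to 108 to 110 CPM in Tac111, 137 to 163 CPM in Tac146 and 135 to 156 CPM in B6. Without Mfge8, the most abundant of them, the other 2 (mostly Epcam) overlapped between the strains. They summed to 50.1 to 57.0 CPM in Tac111, 50.6 to 69.7 CPM in Tac146 and 46.3 to 64.3 CPM in B6. The 11 macrophage markers summed to 226 to 278 CPM in Tac111, 193 to 404 CPM in Tac146 and 312 to 378 CPM in B6. Endothelial markers were lower as well, with 4 of 6 called in Tac111 against B6, while edgeR and DESeq2 called 0 of 9 epithelial and 0 of 8 muscle markers there, with 0 at an unadjusted p under 0.05. In Tac111 against Tac146 the median over the 8 muscle markers was 0.46 on the log2 scale, with 5 at an unadjusted p under 0.05, and edgeR called 1 (Myl1) and DESeq2 5 higher. They summed to 27686 to 29615 CPM in Tac111, 16529 to 25406 CPM in Tac146 and 27424 to 30682 CPM in B6. In Tac146 against B6 their median was -0.37, with 0 called by edgeR or DESeq2 and 3 at an unadjusted p under 0.05. The part of these cells in the level of class II transcripts was not tested.

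Set against CD45, H2-Aa did not separate the strains. CD45 is a general leukocyte marker, so this ratio is not a level per cell that carries class II. The ratio of the CPM of H2-Aa to that of Ptprc was 11.0, 9.98 and 14.6 in the Tac111 libraries, 12.3, 11.4 and 10.6 in the Tac146 libraries, and 10.7, 9.73 and 9.75 in the B6 libraries, and the 3 strains overlapped. Set against Cd207 and Itgax, H2-Aa placed Tac111 above the other strains, and set against Csf1r, a macrophage receptor, below Tac146. H2-Aa over Cd207 was 41.7, 34.1 and 31.5 in Tac111, 18.0, 15.7 and 13.7 in Tac146, and 16.1, 23.0 and 17.8 in B6. H2-Aa over Itgax was 30.8, 37.8 and 45.4 in Tac111, 24.4, 19.3 and 16.2 in Tac146, and 29.4, 21.9 and 17.2 in B6. For both of these ratios, all Tac111 libraries lay above all libraries of Tac146 and B6. H2-Aa over Csf1r was 1.87, 2.27 and 2.83 in Tac111, 3.11, 3.07 and 3.96 in Tac146, and 3.12, 2.22 and 3.01 in B6, so that Tac111 lay below all Tac146 libraries and overlapped B6. H2-Aa over Krt5, a keratinocyte marker, was 0.0116 to 0.0168 in Tac111, 0.0283 to 0.0375 in Tac146 and 0.0249 to 0.0286 in B6. For that ratio all Tac111 libraries lay below the others. The ratios are not corrected for length and were not tested.

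**Figure D5:**
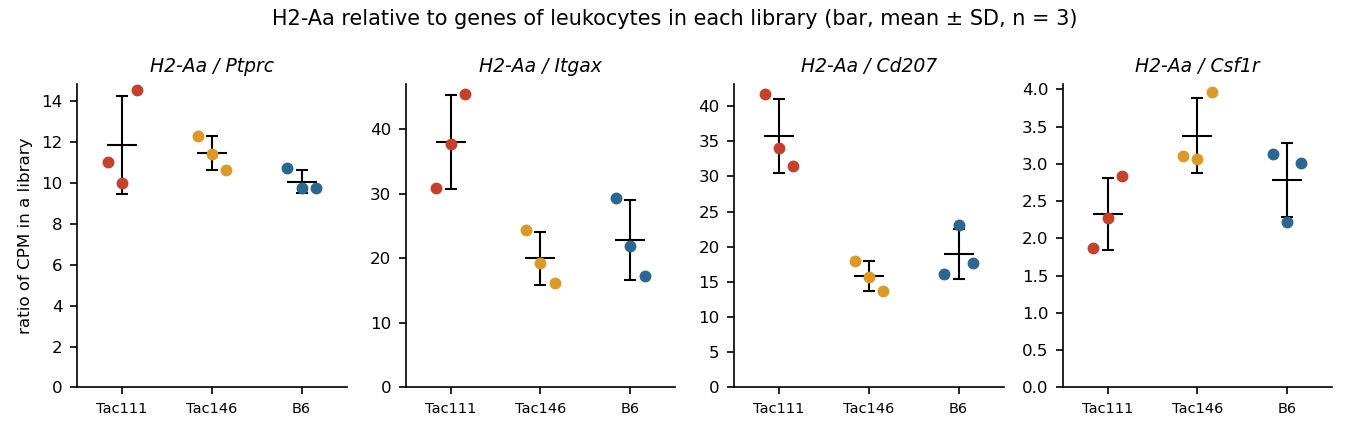
Ratio of the CPM of H2-Aa to that of Ptprc, Itgax, Cd207 and Csf1r (y axes, from 0) in each library of Tac111, Tac146 and B6. Points are libraries and bars the mean ± SD (n = 3). The strains overlap for Ptprc, the Tac111 points stand above the others for Itgax and Cd207, and for Csf1r they stand below the Tac146 points and overlap the B6 points.

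Among genes outside the 10, those with the pattern most like Ciita over the 9 libraries were Ikzf1, Cd244a, Lcp1, Klrb1b and Ptprc, all genes of blood cells. Likeness was the root mean square difference of centred log2(CPM + 1) values, which was 0.112 to 0.138 for these 5 and 0.568 for the median of the 13151 genes compared. Ikzf1, a lymphoid transcription factor, averaged 1.19 CPM in Tac111, 3.53 CPM in Tac146 and 3.19 CPM in B6. For the mean of H2-Aa, H2-Ab1 and H2-Eb1 the most alike were Cd52, Hpgds, Retnla, Ptprc and H2-K1, at 0.132 to 0.179, beside a median of 0.593 over 10896 genes. H2-K1, a class I heavy chain, averaged 154 CPM in Tac111, 325 CPM in Tac146 and 349 CPM in B6. Ptprc was in both sets, so the overlap of the strains in the ratio of H2-Aa to Ptprc is not a separate observation. On the same measure Ciita differed from the mean of the 3 chains by 0.189. These genes were picked for their likeness, and low values move less on this scale, so the distances are a description.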

How the data were processed

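RNA was measured in 9 libraries, 3 for each strain, and grouped by the strain and replicate number in the labels. The deposited files pair each gene symbol with an expected count, per the file headers, that is, an estimated count that may be fractional. STAR, RSEM and GRCm38 were used, per the submitters' processing notes. No source used here gives versions, annotation or strand setting. Totals ran from 27192359 to 46456500, and 3 counts were taken as the floor for a gene at 0.

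Counts of 107 symbols on several lines were summed. Another 27 names read as dates and were kept apart, so March1 and March8 were not used, nor were H2-Ea and Hsd17b8. Expected counts were rounded to whole numbers and fitted with edgeR 4.0.16 in R 4.3.3 (quasi-likelihood test, TMM scaling, filterByExpr with its minimum count of 10, all 9 libraries, 1 mean per strain, 6 residual degrees of freedom). Benjamini-Hochberg adjustment ran over the 16523 genes tested at a threshold of 0.05, and the fit was tested on simulated data. The SE, taken from the F statistic, is an approximation. Library sizes scaled by TMM gave the CPM. Libraries within a strain differed beyond counting noise (chi-square per degree of freedom 15.7 to 95.4).

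The genes named were all 10 class II genes, the list members (at most 4 a list) lowest in adjusted p in Tac111 against B6, any defining marker at 0, and the 5 genes most like each profile. The members and lists were chosen with earlier results of these data known. As alternatives, DESeq2 1.42.0, upper-quartile and median-ratio scaling, no filter, a filter of 1 CPM in 3 libraries, the replicate number as a block, fits on 6 libraries, limma 3.58.1 on log2(CPM + 1), robust dispersions, unrounded counts, each library left out, another gene length and, added after seeing the data, H2-DMb1 and H2-DMb2 summed were run. Il2rg, Brd2, Creb1, Trbc2, Itga1, Flt3, Zbtb46 and Krt5 were named after their values were seen. Counts over the list of the interferon gamma route, and 1 result in it, are not reported here. DM transcripts were aligned with Biopython 1.88.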

Additional observations from a re-analysis of the deposited data

How the results depend on the processing

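Class II calls held under nearly all alternatives, while counts over all genes did not. Over the 19 alternatives of a comparison, 7 to 8 of the 10 genes were called in Tac111 against B6, 0 in Tac146 against B6, 8 to 9 in Tac111 against Tac146 and 7 to 8 with the 3 strains together. No called gene reversed. H2-DMb1 in Tac111 against B6 was lost in 8 alternatives, and H2-Ob in Tac111 against Tac146 passed with no filter (adjusted p = 0.04998, alternatives 0.04998 to 0.183). The DO chains were not tested under the filter of 1 CPM. Over all genes, edgeR called 630 in Tac111 against B6, 50 in Tac146 against B6, 1469 in Tac111 against Tac146 and 806 with the 3 strains together. DESeq2 called 1161, 131, 2586 and 2065 in that order. With no filter the counts were 1020 in Tac111 against B6, 129 in Tac146 against B6 and 1695 with the 3 strains together. With only the 6 libraries of the comparison they were 26 in Tac146 against B6 and 641 in Tac111 against Tac146. Leaving out 1 library gave 295 to 958 in Tac111 against B6, 33 to 64 in Tac146 against B6, 470 to 1829 in Tac111 against Tac146 and 315 to 1066 with the 3 strains together. Upper-quartile factors called 609 higher and 822 lower in Tac111 against Tac146, beside 433 and 1036. The replicate block called 632 in Tac111 against Tac146 and changed no call of the 10 genes. Deviations of same-numbered libraries correlated at -0.089 to 0.206, with 1 of 7 pairs over 0.1. Libraries of different strains and numbers correlated at -0.288 to 0.228. With so few pairs, this cannot tell whether the numbers pair the libraries. The median of all genes stayed within 0.1 of 0 on the log2 scale under every scaling. The cause of these shifts was not tested. The DO chains and H2-Eb2 rest on 0 to 46 counts in a library.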
